A study of Mus musculus with 6 samples.

Results

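The core pluripotency factors and cofactors described here are 10 genes that encode proteins central to mouse embryonic stem cells (ESCs). They include the core factors Pou5f1 (the gene for OCT4), Sox2 and Nanog, and the nuclear cofactors Sall4, Zfp281 and Rif1. The others are the pluripotency-associated genes Utf1, Dppa2, Dppa4 and Dppa5a. All 10 genes were picked by name, with earlier results of these data known. Each was represented by its RefSeq transcript with the most counts over the 6 libraries, so they are 10 of the 21409 genes measured. RNA-seq was performed on V6.5 ESCs, a C57BL/6-129 hybrid mouse line, after lentiviral short hairpin RNAs (shRNAs) were used to deplete subunits of 2 chromosome-organizing complexes. The comparison asks how transcripts of the pluripotency factors differ when cohesin is depleted and when condensin is depleted. SMC1 is a subunit of cohesin, CAPH2 a subunit of condensin II, and SMC2 a subunit that all condensin complexes share.

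Of the 6 libraries, 1 came from cells given a control shRNA to GFP, 1 from SMC1 knockdown, 2 from CAPH2 knockdown (CAPH2 1 and CAPH2 2) and 2 from SMC2 knockdown (SMC2 1 and SMC2 2). Cells of every group were infected with virus, selected with puromycin at 0.5 and then 1 µg/ml for 48 hours each, and grown for a passage on gelatin away from the irradiated mouse embryonic fibroblasts that serve as feeders. The paired libraries of CAPH2 and of SMC2 were made with different hairpins, so each hairpin is represented by a single library. No source says whether the libraries came from separate cultures, and p-values then measure only the spread between these libraries. SMC1 and GFP had no replicate, and the tests assume that a lone library varies as the 4 condensin libraries do.

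OCT4 and SOX2 bind DNA side by side at composite motifs in enhancers and promoters of ESC genes, and with NANOG they activate their own genes and those of other pluripotency factors. SALL4, ZFP281 and RIF1 are nuclear proteins that work with this circuit or in chromatin and replication control. UTF1, DPPA2 and DPPA4 are chromatin-associated proteins, DPPA5A is an RNA-binding protein, and all are made in pluripotent cells.

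RNA-seq levels are given as RPKM, the read count scaled to the length of the exons and to the reads of the library, so that genes can be compared. Differences are given as log2 ratios. Total counts over RefSeq transcripts ranged from 25016322 to 30988288 per library, so that even the lowest count of any member, 367 for Dppa5a in SMC1, was above the test minimum of 10. The targeted transcripts were below GFP in their own libraries by different amounts: Smc1a RPKM was 39.9% of GFP in SMC1, Ncaph2 (which encodes CAPH2) was 21.0% and 34.8% of GFP in CAPH2 1 and CAPH2 2, and Smc2 was 70.7% and 71.9% of GFP in SMC2 1 and SMC2 2. ERCC spike-in RNA, added to each sample by cell number, made up between 0.948% (SMC1) and 1.77% (CAPH2 2) of counts, with 1.11% in CAPH2 1 and 1.72% in GFP. All 7 defining ESC markers (Pou5f1, Sox2, Nanog, Zfp42, Esrrb, Dppa3 and Fgf4) were detected in every library, with the lowest level 3.56 RPKM for Dppa3 in SMC1.

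Promoter sequence is shown for the 5 members found in the RefSeq promoter table (GRCm38.p6), to place the motifs that OCT4 and SOX2 bind beside the levels of the genes that encode them. The other members, Sall4, Rif1, Dppa2, Dppa4 and Dppa5a, were not matched. Each line gives the 250 bases before the most upstream annotated start of the gene, read 5′ to 3′ on the gene's strand. Capitals mark the POU-SOX composite (CATTGT, any base, then ATGCAAA) with at most 2 mismatches, the octamer core ATGCAAA that the composite contains, and the GC box GGGCGG, each on either strand.
Nanog, chr6:122707239-122707488, plus strand: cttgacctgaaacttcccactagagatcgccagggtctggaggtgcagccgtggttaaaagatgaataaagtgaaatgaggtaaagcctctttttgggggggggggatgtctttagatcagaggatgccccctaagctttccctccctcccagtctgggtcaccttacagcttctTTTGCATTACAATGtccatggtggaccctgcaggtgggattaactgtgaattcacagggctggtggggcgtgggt
Sox2, chr3:34649745-34649994, plus strand: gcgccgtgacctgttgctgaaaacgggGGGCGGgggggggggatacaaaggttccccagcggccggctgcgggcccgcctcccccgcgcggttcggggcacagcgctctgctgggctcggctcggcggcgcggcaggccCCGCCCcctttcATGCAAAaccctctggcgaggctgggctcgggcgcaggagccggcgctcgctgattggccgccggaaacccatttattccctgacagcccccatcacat
Pou5f1, chr17:35505782-35506031, plus strand: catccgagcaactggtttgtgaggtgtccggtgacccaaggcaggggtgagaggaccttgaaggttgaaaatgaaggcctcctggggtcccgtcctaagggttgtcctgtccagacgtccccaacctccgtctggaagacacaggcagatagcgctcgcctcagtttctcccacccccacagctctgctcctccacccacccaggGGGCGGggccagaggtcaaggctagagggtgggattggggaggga
Utf1, chr7:139943606-139943855, plus strand: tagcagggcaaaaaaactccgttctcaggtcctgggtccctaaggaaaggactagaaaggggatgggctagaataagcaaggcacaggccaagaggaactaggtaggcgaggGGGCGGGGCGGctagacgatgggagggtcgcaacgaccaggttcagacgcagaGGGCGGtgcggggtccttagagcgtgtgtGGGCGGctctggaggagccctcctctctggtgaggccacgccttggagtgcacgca
Zfp281, chr1:136624651-136624900, plus strand: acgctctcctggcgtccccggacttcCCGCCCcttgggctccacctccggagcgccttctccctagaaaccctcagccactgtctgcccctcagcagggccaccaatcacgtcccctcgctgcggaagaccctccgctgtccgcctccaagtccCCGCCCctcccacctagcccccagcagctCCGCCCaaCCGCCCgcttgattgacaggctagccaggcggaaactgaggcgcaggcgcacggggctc
The Nanog window held a full match to the composite, TTTGCATTACAATG, on the minus strand with its first base at -75 from the start. It had no GC box. From another annotated Nanog start, further downstream, the same match lay at -151. The Sox2 window held an octamer core and 2 GC boxes, and the Pou5f1, Utf1 and Zfp281 windows held 1, 4 and 4 GC boxes with no octamer core. Over 32851 promoters of the same length, 0.804% held the composite, 4.12% the octamer core and 32.7% a GC box. A match is a description of the letters, and these windows leave out the distal enhancers of these genes.

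**Figure D1:**
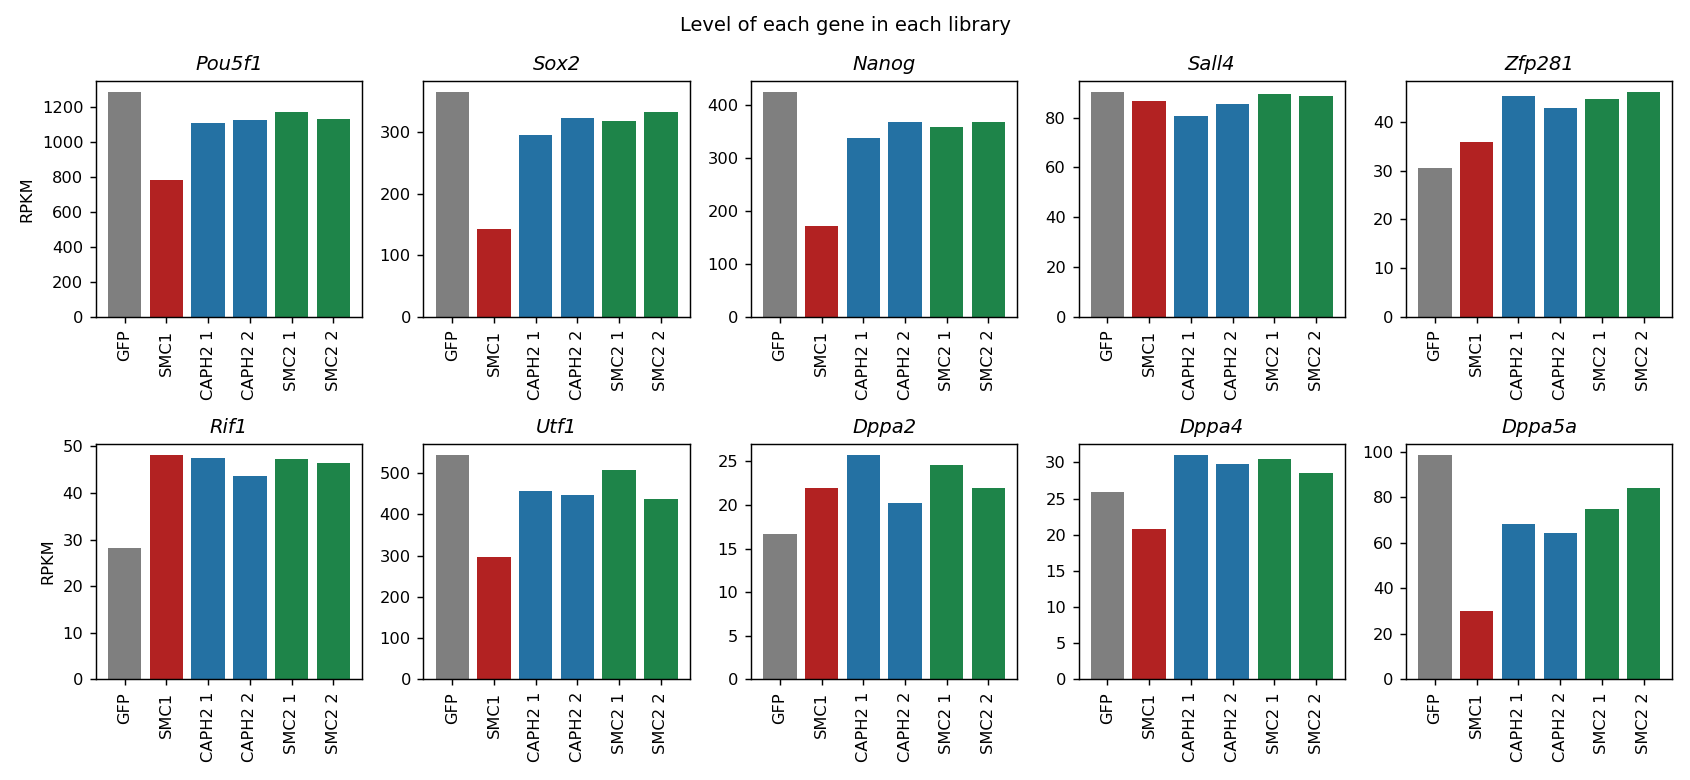
RPKM of each of the 10 genes in each library, 1 bar per library and a separate vertical axis from 0 for each gene; grey is GFP, red SMC1, blue CAPH2 and green SMC2. SMC1 has the lowest bar for Pou5f1, Sox2, Nanog, Utf1, Dppa4 and Dppa5a, and GFP has the lowest for Zfp281, Rif1 and Dppa2.

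Transcripts of the 3 core factors were lower after SMC1 knockdown than in all 4 condensin knockdown libraries. Sox2 and Nanog stood at 45.0% and 47.8% of the condensin mean and Pou5f1 at 69.2%. Of all 10 members, 7 were called lower in SMC1 (Pou5f1, Sox2, Nanog, Zfp281, Utf1, Dppa4 and Dppa5a), none was called higher, and Sall4, Rif1 and Dppa2 did not pass the test. Among all 15189 genes tested, 21.9% were called lower and 23.9% higher in the same comparison. The median log2 difference of the members was -0.55, beside -0.01 over all genes tested. The test was edgeR's quasi-likelihood test on the counts, with TMM scaling and a Benjamini-Hochberg adjusted p-value threshold of 0.05 over all genes. Bulk RNA cannot tell fewer cells that express a gene from less RNA per cell.

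Pou5f1 (NM_013633, mm9 chr17:35642984-35647722, plus strand, 5 exons) encodes the POU-domain factor OCT4. Its RPKM was 1285.5 in GFP, 785.0 in SMC1, 1106.6 and 1127.8 in CAPH2 and 1172.6 and 1133.6 in SMC2. The SMC1 library was below every other, and the 4 condensin libraries lay close together at 1135 ± 27.5 (SD, n = 4). The edgeR log2 difference of SMC1 from condensin was -0.56 ± 0.065 (SE, adjusted p = 6.17e-05). Even at its lowest, Pou5f1 ranked 14 of 21409 genes by RPKM in SMC1, against 10 in GFP. Exon numbers, here and for the other members, are those of the gene's longest coding GENCODE transcript.

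Sox2 (NM_011443, mm9 chr3:34548927-34551382, plus strand), a gene of 1 exon, encodes the HMG-box partner of OCT4. RPKM was 365.3 in GFP, 142.9 in SMC1, 296.1 and 323.2 in CAPH2 and 318.0 and 333.9 in SMC2. SMC1 was again the lowest library, and no condensin library came near it. Sox2 fell by 1.18 ± 0.083 on the log2 scale in SMC1 relative to condensin (edgeR adjusted p = 2.07e-06). Its rank by RPKM was 91 in GFP, between 89 and 125 in the condensin libraries, and 392 in SMC1.

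Nanog (NM_028016, mm9 chr6:122657586-122663796, plus strand, 4 exons) encodes a homeodomain factor of the same circuit. RPKM was 423.6 in GFP, 171.4 in SMC1, 337.7 and 368.0 in CAPH2 and 358.9 and 368.4 in SMC2. The SMC1 value lay well below the condensin range, and the log2 difference was -1.09 ± 0.080 (edgeR adjusted p = 2.6e-06). Nanog moved from rank 68 in GFP to 294 in SMC1 and stayed between 71 and 90 in the condensin libraries.

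Ratios of 2 genes within a library do not depend on how libraries are scaled to each other. The ratio of Sox2 to Pou5f1 RPKM was 0.284 in GFP and 0.280 ± 0.013 (SD, n = 4) in the condensin libraries, and 0.182 in SMC1. Nanog over Pou5f1 was 0.330 in GFP, 0.316 ± 0.012 with condensin knockdown and 0.218 in SMC1. Nanog over Sox2 spanned a narrow range, from 1.10 to 1.14 in the condensin libraries with 1.16 in GFP and 1.20 in SMC1. SMC1 was thus the library with the least Sox2 and Nanog per Pou5f1 transcript, while Nanog per Sox2 differed little between libraries.

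**Figure D2:**
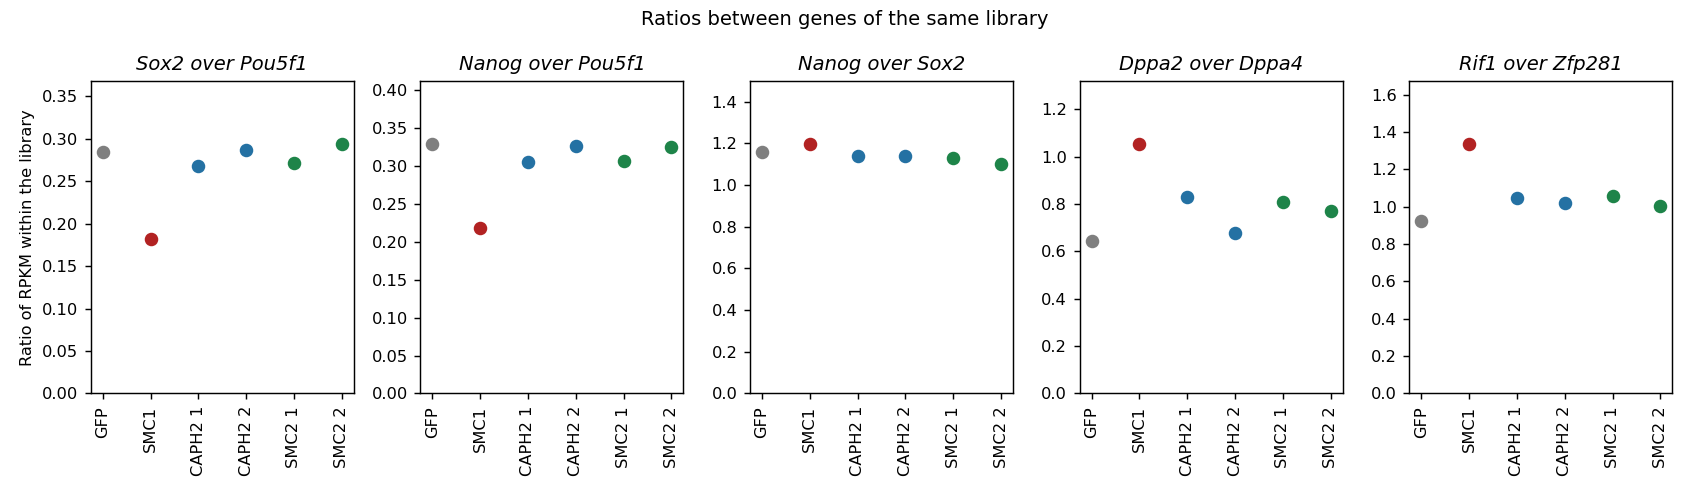
Ratio of the RPKM of 2 genes in the same library, 1 point per library and a vertical axis from 0 in each panel. SMC1 lies below all other libraries for Sox2 over Pou5f1 (0.182) and Nanog over Pou5f1 (0.218), and above them for Dppa2 over Dppa4 (1.06) and Rif1 over Zfp281 (1.34).

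Of the 3 nuclear cofactors, Zfp281 was called lower in SMC1, as the core factors were, and Sall4 and Rif1 were not. Sall4 (NM_175303, mm9 chr2:168573832-168592701, minus strand, 4 exons) encodes a zinc-finger protein that binds with OCT4 and NANOG. Its RPKM was 90.2 in GFP, 86.8 in SMC1, 80.6 and 85.5 in CAPH2 and 89.4 and 88.8 in SMC2. The SMC1 value fell inside the condensin range, and the edgeR log2 difference was -0.01 ± 0.077 (adjusted p = 0.919). As Sall4 held its level while Pou5f1 was lower, the ratio of Sall4 to Pou5f1 was 0.111 in SMC1 and 0.073 to 0.078 in the condensin libraries.

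Rif1 (NM_175238, mm9 chr2:51928357-51977901, plus strand, 36 exons) encodes a large protein that controls replication timing and telomere and repair functions. Its RPKM was 28.2 in GFP, 48.1 in SMC1, 47.4 and 43.7 in CAPH2 and 47.2 and 46.4 in SMC2. All 5 knockdown libraries stood together well above GFP, and SMC1 did not differ detectably from condensin (edgeR log2 difference 0.04 ± 0.069, adjusted p = 0.687). SMC1 was nominally the highest, and Rif1 was the only member of 10 whose SMC1 RPKM exceeded every condensin library, a pattern seen in 41.0% of all genes tested.

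Zfp281 (NM_001160251, mm9 chr1:138521478-138526968, plus strand, 2 exons) encodes a zinc-finger factor that binds GC-rich DNA and restrains Nanog. RPKM was 30.5 in GFP, 35.996 in SMC1, 45.4 and 43.0 in CAPH2 and 44.7 and 46.1 in SMC2. SMC1 lay between GFP and the condensin libraries, overlapping neither. The gene was lower in SMC1 than with condensin knockdown by a log2 difference of -0.34 ± 0.072 (edgeR adjusted p = 0.00285), although SMC1 was nominally above GFP at 118% (95% counting interval 113 to 124%). Zfp281 over Nanog was 0.072 in GFP, 0.117 to 0.135 in the condensin libraries and 0.210 in SMC1.

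Among the pluripotency-associated genes, Utf1 (NM_009482, mm9 chr7:147129755-147131011, plus strand, 2 exons) was second only to Pou5f1 of the 10 members in level in every library. Utf1 encodes a chromatin protein and is a known target of OCT4 and SOX2. Its RPKM was 544.0 in GFP, 297.5 in SMC1, 457.7 and 445.8 in CAPH2 and 507.1 and 438.0 in SMC2. SMC1 was lowest by a wide margin, with a log2 difference from condensin of -0.66 ± 0.089 (edgeR adjusted p = 0.000161). Utf1 over Pou5f1 was 0.379 in SMC1, 0.386 to 0.433 in the condensin libraries and 0.423 in GFP.

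Dppa2 and Dppa4 are neighbours on chromosome 16, on the plus strand, with 15981 bases between them in mm9, and their proteins form a complex on chromatin. Dppa4 (NM_028610, chr16:48283848-48294405, 7 exons) had an RPKM of 25.8 in GFP, 20.8 in SMC1, 31.0 and 29.8 in CAPH2 and 30.4 and 28.5 in SMC2. It was the only member that was nominally below GFP in SMC1 and above GFP in all 4 condensin libraries. Dppa4 was lower in SMC1 than with condensin knockdown (edgeR log2 difference -0.55 ± 0.092, adjusted p = 0.000685). Dppa2 (NM_028615, chr16:48310387-48319626, 7 exons) had an RPKM of 16.7 in GFP, 21.9 in SMC1, 25.7 and 20.2 in CAPH2 and 24.6 and 21.983 in SMC2. Its SMC1 value fell inside the condensin range (edgeR log2 difference -0.10 ± 0.122, adjusted p = 0.524). The ratio of Dppa2 to Dppa4 was 0.645 in GFP, 0.772 ± 0.066 (SD, n = 4) with condensin knockdown and 1.06 in SMC1, so that SMC1 was the single library in which Dppa2 exceeded Dppa4.

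Dppa5a (NM_025274, mm9 chr9:78214861-78216006, minus strand, 3 exons) had the largest difference of the members. Its RPKM was 98.7 in GFP, 29.9 in SMC1, 68.2 and 64.5 in CAPH2 and 74.9 and 84.3 in SMC2. GFP was the highest library and SMC1 the lowest, with the condensin libraries between and not overlapping either. SMC1 lay below condensin by a log2 difference of -1.31 ± 0.151 (edgeR adjusted p = 5.47e-05), and its rank by RPKM was 837 in GFP and 3425 in SMC1.

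Several members have near-identical copies elsewhere in the genome, and the authors discarded reads that aligned to more than 2 places. Of the exonic bases of the mm9 GENCODE transcript, 69.0% for Dppa5a, 60.5% for Dppa2 and 12.4% for Nanog lay in alignments of at least 36 bases and 95% identity to more than 2 places, so these levels are uncertain and can be undercounted. Only 4.5% of Dppa5a bases, 8.3% of Dppa2, 17.7% of Dppa4, 28.1% of Nanog and 65.6% of Pou5f1 were found in 1 place. Reads kept in 2 places can fall in either copy. The other 5 members were unique over at least 98.1% of their bases.

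**Figure D3:**
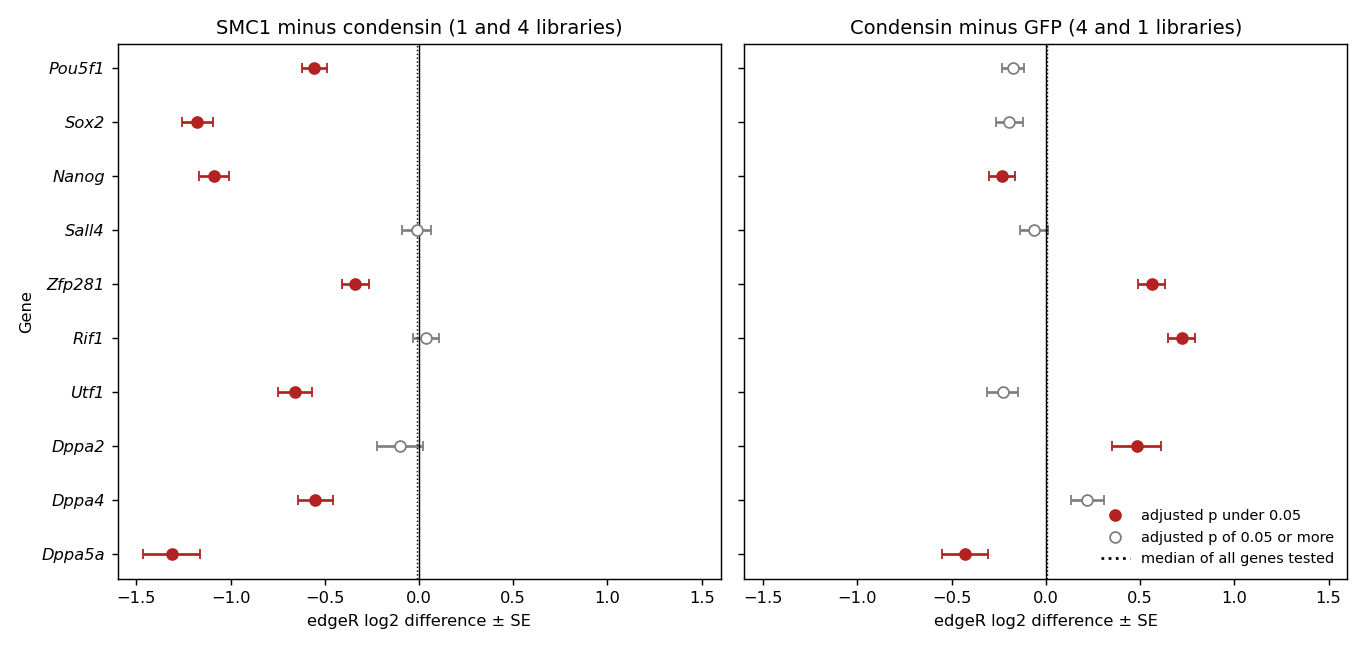
Log2 difference of each gene fitted by edgeR, with bars of 1 SE; left, SMC1 minus the 4 condensin libraries, right, condensin minus GFP, and the dotted line marks the median of all genes tested. Sox2, Nanog and Dppa5a lie beyond -1 on the left only, and Rif1 and Zfp281 have the highest values on the right (0.72 and 0.56).

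Judged by RPKM alone, 7 of the 10 members had an SMC1 value below all 4 condensin libraries, which was so for 37.5% of all genes tested. The 7 calls held under 12 of 13 alternative settings and were all lost under 1, scaling by ERCC spike-ins in place of TMM. The spike-in scaling moved the median difference of all genes to 0.40 and called 216 genes lower and 1901 higher, against 3332 and 3630 with TMM. Under that scaling no member passed the edgeR test (adjusted p between 0.212 and 0.940). Zfp281, Sall4 and Dppa2 turned from below to above 0. Taking off that median gave -1.16 for Sox2, -1.07 for Nanog and -0.54 for Pou5f1. This step undoes a shift common to all genes, so it returns values near those with TMM and is no separate check.

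Markers of other cell types moved in the same library, where 23.9% of all genes tested were called higher and 21.9% lower than with condensin knockdown. Of 13 fibroblast feeder markers tested, 11 were called higher in SMC1 than with condensin knockdown and none lower, and their summed RPKM over 14 genes was 311.2 in SMC1, 116.6 to 191.6 in the condensin libraries and 119.5 in GFP. Twist1, a mesenchymal transcription factor, had an RPKM of 18.5 in SMC1 and 5.68 to 6.52 in the condensin libraries, while Dcn, a secreted proteoglycan, had 19 counts in SMC1 and 5 to 7 in the condensin libraries. Acta2 alone made up a large part of the sum, with 171.4 RPKM in SMC1, 50.4 to 97.7 in the condensin libraries and 60.2 in GFP. No marker of the list was at 0 counts in GFP, and 5 of 14 were under 1 RPKM there. The part of these transcripts in the lower levels of the 7 members was not tested.

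The next comparison set the condensin knockdowns against the control. With all 4 condensin libraries against the GFP library, 3 members were called higher (Rif1, Zfp281 and Dppa2), 2 lower (Nanog and Dppa5a) and 5 did not pass (Pou5f1, Sox2, Sall4, Utf1 and Dppa4). Over the 15027 genes tested, 7.81% were called higher and 7.27% lower. The median of the members was -0.12 and that of all genes tested 0.01 on the log2 scale. This comparison rests on a single GFP library, which it shares with every value given relative to GFP.

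Rif1 had the largest difference, 0.72 ± 0.073 on the log2 scale (SE, edgeR adjusted p = 0.00231), equal to 165% of GFP, and each condensin library alone had between 155% and 168% of the GFP level. Zfp281 was higher by 0.56 ± 0.072 (edgeR adjusted p = 0.00342), with single libraries between 141% and 151% of GFP. Dppa2 was higher by 0.48 ± 0.128 (edgeR adjusted p = 0.031), with a wider spread of 121% to 155% of GFP. Rif1 and Zfp281 kept this call with each condensin library left out, whereas Dppa2 lost it without SMC2 1 (adjusted p = 0.0669).

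The core factors were all nominally below GFP in every condensin library, at 86.1 to 91.2% for Pou5f1, 81.0 to 91.4% for Sox2 and 79.7 to 87.0% for Nanog. Of these only Nanog passed the test (edgeR log2 difference -0.24 ± 0.069, adjusted p = 0.0436). Pou5f1 (-0.17 ± 0.059, adjusted p = 0.0719) and Sox2 (-0.20 ± 0.072, adjusted p = 0.0904) did not. Dppa5a was lower by a log2 difference of -0.43 ± 0.123 (edgeR adjusted p = 0.0397), with libraries at 65.4 to 85.4% of GFP. The calls of Nanog and Dppa5a were both lost without CAPH2 2 (adjusted p = 0.0692 and 0.0715) and without SMC2 1 (0.102 and 0.071), and that of Nanog also with CAPH2 and SMC2 as separate groups (0.0618).

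Among the remaining genes, Utf1 (-0.23 ± 0.082, edgeR adjusted p = 0.0835), Dppa4 (0.22 ± 0.089, adjusted p = 0.117) and Sall4 (-0.06 ± 0.074, adjusted p = 0.611) did not pass. Utf1 passed without SMC2 1 (edgeR adjusted p = 0.0445). For all 10 members the GFP value lay outside the range of the condensin libraries, a pattern held by 67.4% of all genes tested. With ERCC scaling no member passed, the median of all genes moved to 0.47, and 6 members turned from below to above 0 (Pou5f1, Sox2, Nanog, Sall4, Utf1 and Dppa5a), of which Nanog and Dppa5a had been called lower. Taking off that median, which undoes a shift common to all genes, gave -0.24 for Nanog and -0.42 for Dppa5a. These values are no separate check either.

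**Figure D4:**
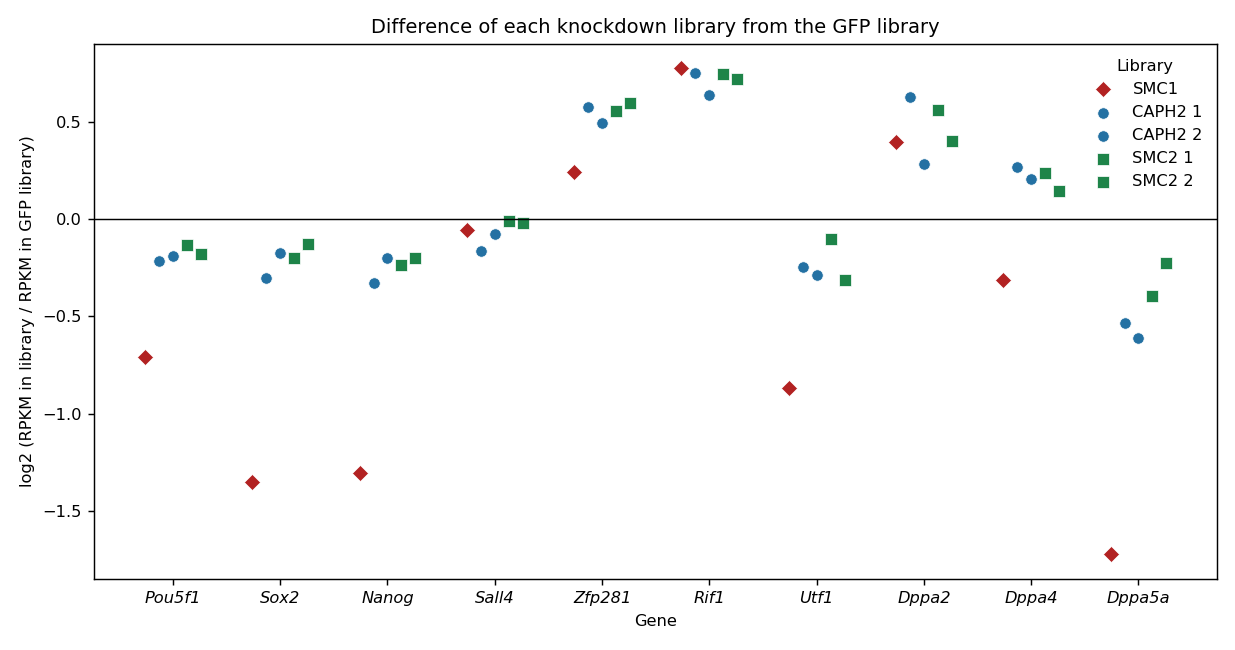
Log2 of the RPKM in each knockdown library over that in the GFP library, for each gene, with libraries from left to right SMC1, CAPH2 1, CAPH2 2, SMC2 1 and SMC2 2. SMC1 lies furthest below 0 for Dppa5a (-1.72), Sox2 (-1.35) and Nanog (-1.31), and all 5 libraries lie above 0 for Rif1, Zfp281 and Dppa2.

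Relative to the single GFP library, SMC1 gives values with no test. Dppa5a was at 30.3% of GFP in SMC1 (95% counting interval 26.9 to 34.0%), Sox2 at 39.1% (38.0 to 40.2%), Nanog at 40.5% (39.1 to 41.9%), Utf1 at 54.7% (53.1 to 56.3%) and Pou5f1 at 61.1% (60.0 to 62.1%). For these 5 of the 10 genes the order of levels was GFP, then the condensin libraries, then SMC1, with no overlap, a pattern held by 18.9% of all genes tested. Scaled to the ERCC RNAs, the log2 values of SMC1 over GFP were -0.86 for Dppa5a, -0.49 for Sox2, -0.44 for Nanog and -0.0058 for Utf1, and Pou5f1 turned to 0.15. Without that scaling, Rif1 was at 171% of GFP (165 to 177%) and Dppa2 at 132% (119 to 146%). The intervals cover counting error only.

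The members did not differ detectably between CAPH2 and SMC2 knockdown, each with 2 libraries. Of 10 members 0 were called by edgeR, 1 (Dppa5a) had an unadjusted p under 0.05, and DESeq2 also called 0. Among the 14953 genes tested 3, or 0.0201%, were called, and 472 had an unadjusted p under 0.05. The 3 were Smc2, Ncaph2 and the transcript NM_025795, named after their values were seen. The differences of the members, SMC2 minus CAPH2, lay between -0.04 ± 0.084 for Dppa4 and 0.11 ± 0.063 for Sall4 on the log2 scale, apart from Dppa5a at 0.27 ± 0.089 (SE). Dppa5a had the largest gap, with 68.2 and 64.5 RPKM in CAPH2 and 74.9 and 84.3 in SMC2, not overlapping but with an adjusted p of 0.998 in edgeR.

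Other isoform rows of the same genes gave nearly the same differences. The 2 Zfp281 transcripts shared their log2 value of 0.24 for SMC1 against GFP, and the 2 Dppa4 transcripts had -0.31 and -0.37. The 3 Sall4 transcripts had values between -0.10 and -0.06. A read in a shared exon counted for each of them.

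The order of the members by RPKM was nearly fixed. Pou5f1, Utf1, Nanog and Sox2 were the first 4 in each of the 6 libraries. All 4 condensin libraries had the same full order, ending Sall4, Dppa5a, Rif1, Zfp281, Dppa4 and Dppa2. In GFP, Dppa5a stood before Sall4 and Zfp281 before Rif1. In SMC1, Dppa5a dropped behind Sall4, Rif1 and Zfp281, and Dppa2 stood before Dppa4.

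The genes whose pattern over the 6 libraries was most like the mean of Pou5f1, Sox2 and Nanog were found among 7403 genes with at least 10 RPKM in GFP, by the Euclidean distance between log2 RPKM profiles centred on their own mean. The nearest were Mks1 (distance 0.078), Zbtb44 (0.088), Fam110b (0.103), Tm7sf3 (0.107) and Dnajc21 (0.114). The mean profile was 0.33 in GFP, 0.04 to 0.16 in the condensin libraries and -0.80 in SMC1. Nanog, Sox2 and Pou5f1, which define this profile, ranked 15, 79 and 341 themselves. Among the other members the closest was Utf1, at rank 234, followed by Dppa5a at 818 and Dppa4 at 1333. Sall4, Zfp281, Dppa2 and Rif1 ranked between 3934 and 6831.

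Wider lists of the pluripotency circuit show where the 10 genes sit among related genes. Over all genes tested in SMC1 against condensin, 21.9% were called lower and 23.9% higher. Of 18 other transcription factors of the pluripotency network, 12 were called lower in SMC1 than with condensin knockdown, 3 higher and 3 not called, with a median log2 difference of -1.79 beside -0.01 over all genes tested. The difference of Sox2, -1.18, was thus smaller than the median of that list. Tfcp2l1, a factor of the naive state, fell by 3.11 ± 0.133 on the log2 scale (edgeR adjusted p = 7.05e-08), from 40.1 to 49.6 RPKM in the condensin libraries to 5.32 in SMC1. Prdm14, which represses differentiation genes in ESCs, fell by 3.35 ± 0.184 (edgeR adjusted p = 3.67e-07), to 1.40 RPKM in SMC1.

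Proteins found in complexes with OCT4 and NANOG moved less, and their calls in either direction were near the 45.8% of all genes tested. Of 25 genes, 8 were called lower in SMC1, 4 higher and 13 not called (median -0.10). Parp1, a poly-ADP-ribose polymerase, was lower by a log2 difference of -0.66 ± 0.072 (edgeR adjusted p = 3.78e-05), with 159.4 RPKM in SMC1 and 235.4 to 256.2 in the condensin libraries. Wdr5, a subunit of histone H3 lysine methyltransferase complexes, was lower by -0.59 ± 0.076 (edgeR adjusted p = 0.000121).

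Of 23 OCT4 and SOX2 target and ESC marker genes tested, 9 were lower, 6 higher and 8 not called in SMC1 (median -0.06), and a further gene of the list, Dppa5b, was not analysed here. Tcl1, a co-activator of the kinase AKT, fell by 3.43 ± 0.194 on the log2 scale (edgeR adjusted p = 4.2e-07), and Tdh, the threonine dehydrogenase of mouse ESCs, fell by 2.56 ± 0.097 (edgeR adjusted p = 3.43e-08). The list did not move as a block, and over all genes tested 21.9% were called lower and 23.9% higher. Lefty1 and Lefty2, secreted inhibitors of Nodal signalling, rose by 1.12 and 0.91 (edgeR adjusted p = 2.37e-06 and 1.1e-05).

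**Figure D5:**
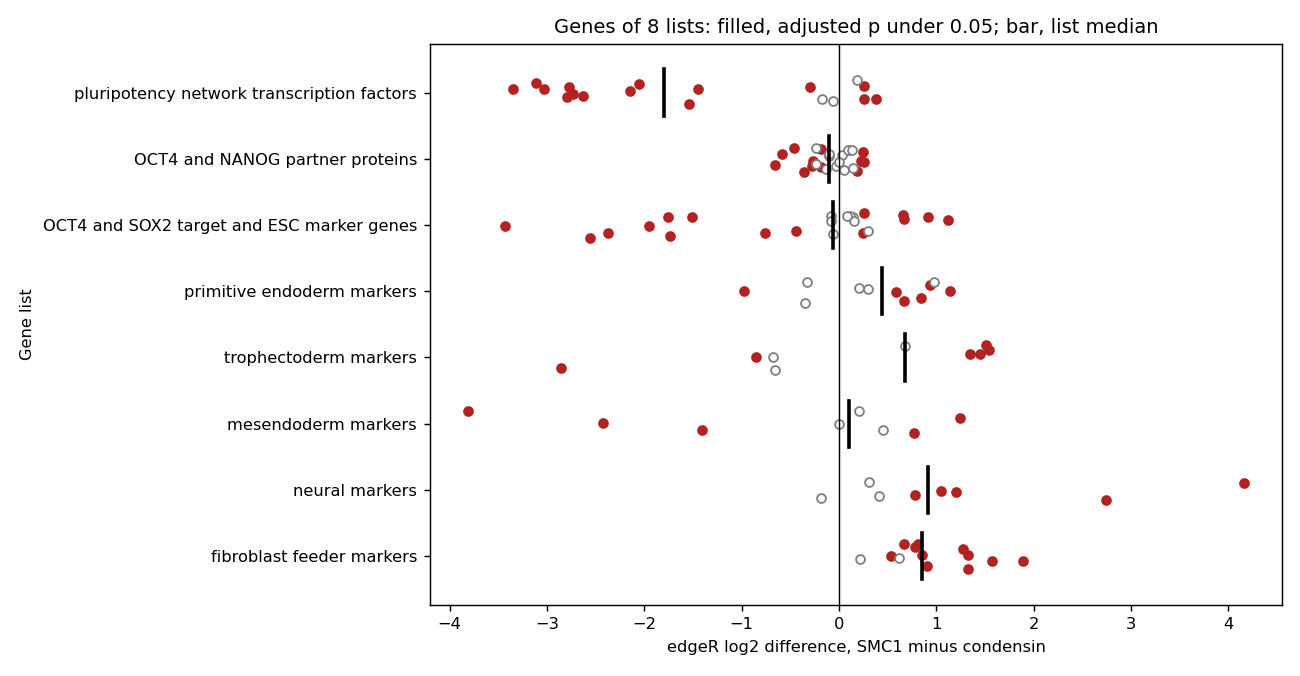
Log2 difference of SMC1 from condensin fitted by edgeR for each tested gene of 8 lists, 1 point per gene and a bar at the list median; filled points passed the adjusted p threshold of 0.05. Hnf4a, at 0 counts in SMC1, is not drawn. The pluripotency network factors have a median of -1.79 and the fibroblast feeder markers of 0.85.

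In the condensin arm against GFP, 15.1% of all genes tested were called in either direction, beside 45.8% in SMC1 against condensin. Network factors had 4 lower, 4 higher and 10 not called of 18, partner proteins 3 lower, 4 higher and 18 not called of 25, and target and marker genes 6 lower, 1 higher and 16 not called of 23. The list medians were -0.02, -0.04 and -0.10 on the log2 scale.

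Markers of other lineages in SMC1 against condensin were mixed, beside 23.9% called higher and 21.9% lower over all genes tested. Of 12 primitive endoderm markers tested 5 were higher and 2 lower, of 9 trophectoderm markers 4 were higher and 2 lower, of 8 mesendoderm markers 2 were higher and 3 lower, and of 8 neural markers 5 were higher and 0 lower. Col4a1, a basement membrane collagen, rose by 1.14 ± 0.118 on the log2 scale (edgeR adjusted p = 2.56e-05), and Hnf4a had 0 counts in SMC1 against 7 to 19 in the condensin libraries. Krt18, an epithelial keratin, rose by 1.54 ± 0.172 (edgeR adjusted p = 4.42e-05), whereas Tfap2c, a factor of trophectoderm and germ cells, fell by 2.85 ± 0.099 (edgeR adjusted p = 2.65e-08).

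The called mesendoderm and neural markers named next were at low levels. Mesp1 had 3 counts in SMC1 and 36 to 64 in the condensin libraries, and Lhx1 had 16 and 62 to 136. Zic1, a neural factor, rose by 2.74 ± 0.301 (edgeR adjusted p = 3.84e-05), to 2.02 RPKM in SMC1 from 0.166 to 0.384, and Neurog2 had 47 counts in SMC1 and 1 to 6 in the condensin libraries. Summed RPKM in SMC1 was 350.1 for the primitive endoderm list (condensin 201.2 to 252.2), 295.7 for trophectoderm (137.4 to 183.0), 29.7 for mesendoderm (19.0 to 30.8) and 142.6 for neural markers (106.7 to 122.6). Sparc alone had 276.6 RPKM in SMC1 and 171.2 in GFP. Krt8 and Krt18 had 117.5 and 156.4 RPKM in SMC1 and 51.4 and 61.0 in GFP. The endoderm and trophectoderm sums thus rest largely on these genes and do not stand for the whole lists. Ttr and Afp of the endoderm list and Elf5 of the trophectoderm list were at 0 counts in GFP. Whether these transcripts bear on the levels of the 10 members was not tested.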

How the data were processed

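RNA-seq libraries were made from V6.5 ESCs with a TruSeq kit after total RNA extraction, with ERCC spike-in RNA added to RNA from 652000 cells per sample. The authors aligned reads to mm9 with Bowtie and discarded those with more than 2 alignments. The authors deposited, for each RefSeq transcript, raw exonic counts and RPKM, the count scaled to exon length and to the library's own reads. Strand use in counting and read length are not given in the sources used here.

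RefSeq accessions were matched to symbols, and 1 transcript per gene was kept (most counts over 6 libraries). Genes with at least 10 counts in at least 1 library of a comparison were tested with edgeR 4.0.16 (R 4.3.3). The settings were TMM, the quasi-likelihood test and Benjamini-Hochberg adjustment over all genes. The test was also run on simulated counts in which every library varied alike, so the simulation cannot show how a lone library varies. DESeq2 1.42.0, other scalings (DESeq2 size factors, library totals, ERCC), filters, all transcripts, all 6 libraries in a joint fit, CAPH2 and SMC2 as separate groups, and leaving out each condensin library were alternatives. SMC1 against GFP, with 1 library each, was not tested. Ratios to GFP used deposited RPKM with no pseudocount, and a pseudocount of 1 was an alternative. Their 95% intervals are exact binomial (Clopper-Pearson) intervals on the 2 counts and cover counting error only. Counts summed over all RefSeq transcripts, where a read in a shared exon counts for each, were 25016322 to 30988288 per library. With 1 transcript per gene they were 19215762 to 23817479. Copies in mm9 were sought with blastn 2.17.0. The genes named are the 10 members and the 2 genes of each list with the largest called difference in SMC1 against condensin. Also named are genes of the marker lists at 0, the 5 genes most like the core profile and the targets. Lefty1, Lefty2, Sparc, Krt8 and Acta2 were named after their values were seen. The members and lists were chosen with earlier results of these data known.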

Additional observations from a re-analysis of the deposited data

Results flagged for a closer look

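Dppa4 was flagged because SMC1 and the condensin libraries lay on opposite sides of the control by RPKM. With ERCC scaling Dppa4 was above GFP in SMC1 (log2 0.55) and in each condensin library (0.16 to 0.90). Its RPKM was 25.8 in GFP, 20.8 in SMC1 and 28.5 to 31.0 in the 4 condensin libraries. The log2 difference of SMC1 from condensin was -0.55 (edgeR adjusted p = 0.000685), and without the ERCC scaling its adjusted p under the alternatives was at most 0.00314. Neither side was shown to differ from GFP: the condensin difference from GFP did not pass (edgeR adjusted p = 0.117), and SMC1 against GFP was not tested.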

How the results depend on the processing

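With 1 SMC1 and 1 GFP library, the tests rest on the spread of 4 condensin libraries. In SMC1 against condensin the 7 called members kept their direction and side of the threshold under every alternative except ERCC scaling, and Sall4, Rif1 and Dppa2 passed under none, with Sall4 at -0.01 by TMM and above 0 with library totals (0.01), the stricter filter, or either SMC2 library left out. ERCC scaling called 2117 genes there (216 lower, 1901 higher) and 0 members lower, and 3 genes, 0 members lower and 0 higher in condensin against GFP. It reversed Zfp281 in SMC1 against condensin (0.069). Against GFP in SMC1 it reversed Pou5f1 (0.15), Sall4 (0.81) and Dppa4 (0.55). In edgeR's condensin against GFP it reversed Nanog (0.23) and Dppa5a (0.052) among the called members, and Pou5f1, Sox2, Utf1 and Sall4, not called, also turned above 0. In the mean RPKM of condensin against GFP it reversed Pou5f1 (0.30), Sox2 (0.27), Nanog (0.23), Sall4 (0.41), Utf1 (0.25) and Dppa5a (0.053). ERCC shares differed by hairpin within CAPH2, and the cause was not tested. In condensin against GFP, leaving out 1 condensin library gave 1250 genes (without SMC2 1) to 2896 (without CAPH2 1) and 0 to 2 members lower, 0 without CAPH2 2 and 1 without SMC2 1. CAPH2 and SMC2 as separate groups left 1 member lower. In CAPH2 against SMC2, with 3 genes called, the alternatives gave 1 (library totals), 8 (no filter), 1 (at least 50 counts in every library) and 7 (DESeq2), and leave-outs 1 (without SMC2 2) to 341 (without CAPH2 2), with 26 without CAPH2 1 and 5 without SMC2 1, while 0 members were called under each. The replicate block, pairing CAPH2 and SMC2 libraries of the same number, called 90 genes and 0 members. Same-numbered libraries did not deviate together (correlation 0.036 over 14953 genes), and the labels give the numbers no meaning beyond hairpins. No paired analysis was possible for the other comparisons because GFP and SMC1 have 1 library. The lowest count of any member was 367, for Dppa5a in SMC1.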

Other observations

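The transcripts of the targeted genes also differed from GFP in libraries made with other hairpins. Smc2 RPKM was 157% of GFP in SMC1 and 159% and 152% in CAPH2 1 and CAPH2 2, close to the values of Rif1 in the same libraries (171%, 168% and 155%). Smc1a was at 116% to 130% of GFP in the 4 condensin libraries. Ncaph2 was at 67.3% of GFP in SMC1 and at 79.6% and 80.9% in SMC2 1 and SMC2 2. All these values share the single GFP library and were not tested.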
